A study of Mus musculus with 14 samples.

Results

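Expression of 8 genes of cholesterol synthesis and its feedback control was followed in 7 groups of mouse blood cells: Hmgcs1, Mvd, Idi1, Fdft1, Sqle, Lss, Cyp51 and Insig1. They were picked by gene symbol from the 20284 genes named on the arrays, and 9 probes matched, with a second probe for Fdft1. The set was put together as sterol synthesis and uptake genes, but 7 of the members encode enzymes of the synthesis pathway and Insig1 encodes a regulator of it. No member is an uptake gene, so the uptake genes are given as a separate list and the members are called the sterol synthesis genes.

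Animal cells build cholesterol from acetyl units. In the first stretch of the pathway, HMG-CoA synthase (Hmgcs1) makes the precursor of mevalonate, mevalonate diphosphate decarboxylase (Mvd) turns activated mevalonate into an isoprenoid unit, and isopentenyl diphosphate isomerase (Idi1) interconverts the isoprenoid building blocks. Squalene synthase (Fdft1) joins farnesyl units in the first step committed to sterols, squalene epoxidase (Sqle) and lanosterol synthase (Lss) oxidise and close squalene to lanosterol, and lanosterol demethylase (Cyp51) starts the conversion of lanosterol. The genes are classical targets of SREBP-2, a membrane-bound transcription factor that is released when sterols in the endoplasmic reticulum are low, and INSIG1, itself an SREBP target, holds that factor back when sterols are plentiful. Dividing cells need sterols for new membrane, and isoprenoids also feed protein prenylation, so the early and the late steps of the pathway serve partly different ends.

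All cells were primary cells of C57BL/6 mice, and total RNA of each sample was labelled with Cy3 after low-input amplification and read on 1 single-colour array, with 2 arrays per group. Granulocyte-monocyte progenitors (GMP) of the bone marrow were sorted as CD117+ CD16/32+ cells without CD115, Sca-1, IL-7R or lineage markers, from wild-type (WT) mice and, with the same gate, from mice labelled IRF8KO, the only group that is not wild type. The other bone marrow groups were common dendritic cell progenitors (CDP: CD115+ CD135+, intermediate CD117, without Sca-1, IL-7R or lineage markers), precursors of classical dendritic cells (pre-cDC: CD11c+ CD135+ CD172a+, without MHC-II or lineage markers) and neutrophils (Neu: CD11b+, high Ly6G). The splenic groups were CD8+ and CD4+ classical dendritic cells (cDC), both CD11c+ MHC-II+. Purification used magnetic beads without flow sorting for CD4+ cDC, flow sorting without beads for Neu, and beads followed by flow sorting for all others. The labels give no allele, age or sex, and do not say whether the 2 samples of a group came from separate mice, so p-values reflect only how far these samples differ, and that spread may be technical.

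A level is the log2 of the processed spot signal minus the 75th percentile of its array, so 0 stands for a probe as bright as that percentile, and levels are compared between groups for 1 probe, never between probes. The percentile itself lay between 77.4 and 516 signal units on the 12 arrays of the larger design and at 566 and 661 on the CD4+ cDC arrays, which are of a smaller design. Between 39.4% and 53.7% of probes were well above background on the former and 59.7% and 61.4% on the latter, no spot was saturated, and the 2 arrays of a group correlated at 0.992 to 0.998 over probes. WT and IRF8KO GMP shared a slide, as did CD8+ cDC and Neu, and every other group had a slide of its own, so outside those pairs slide and group cannot be told apart. On the arrays labelled IRF8KO the Irf8 probe was brighter, not dimmer, than in WT GMP (6.19 against 4.83). Whether the probe lies in the deleted part is not known from the labels or files, so it does not check the label. Neutrophil markers summed to 10900 to 11900 times the 75th percentile in Neu and to at most 56.7 in any other group, and Xcr1, a marker of CD8+ cDC, was well above background in CD8+ cDC alone. Of 7 dendritic cell markers 6 were well above background in CDP, pre-cDC and CD4+ cDC, 7 in CD8+ cDC, 5 in Neu and 3 in both kinds of GMP. All 4 primary granule markers were so in every group except CD8+ cDC (2), so their detection does not set GMP apart. Their sums were 1760 to 1830 in WT GMP, 2230 to 2280 in IRF8KO GMP, 1330 to 1370 in CDP and at most 147 in any other group. Fewer cells of a type and less RNA per cell cannot be told apart in such bulk samples.

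Promoters were read for the members because Mvd, Fdft1 and Insig1 moved together while Hmgcs1 and Lss did not follow them. The RefSeq promoter table of build GRCm38.p6 held 6 of the 8 members, each as 300 bases around the start of the gene, most of them before it. The promoters of Hmgcs1, of Mvd and Insig1, whose levels followed each other closely, and of Lss, whose level did not, are shown with matches to the core of the classical sterol regulatory element (TCACNCCAC) and to the NF-Y box (CCAAT, or ATTGG when read on the other strand) in capitals.
Hmgcs1 (chr13:119690101-119690400, plus strand): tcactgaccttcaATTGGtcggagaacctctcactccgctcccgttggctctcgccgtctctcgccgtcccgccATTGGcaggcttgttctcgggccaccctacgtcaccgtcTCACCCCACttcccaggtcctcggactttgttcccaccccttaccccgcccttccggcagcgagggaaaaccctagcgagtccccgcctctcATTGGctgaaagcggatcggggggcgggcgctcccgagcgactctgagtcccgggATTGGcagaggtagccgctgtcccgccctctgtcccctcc
Mvd (chr8:122443373-122443672, minus strand): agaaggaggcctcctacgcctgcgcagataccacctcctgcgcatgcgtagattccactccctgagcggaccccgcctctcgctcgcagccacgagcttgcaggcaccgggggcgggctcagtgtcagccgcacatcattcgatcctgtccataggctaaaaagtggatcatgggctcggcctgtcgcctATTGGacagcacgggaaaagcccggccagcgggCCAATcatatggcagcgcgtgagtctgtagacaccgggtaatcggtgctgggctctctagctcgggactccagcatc
Insig1 (chr5:28071162-28071461, plus strand): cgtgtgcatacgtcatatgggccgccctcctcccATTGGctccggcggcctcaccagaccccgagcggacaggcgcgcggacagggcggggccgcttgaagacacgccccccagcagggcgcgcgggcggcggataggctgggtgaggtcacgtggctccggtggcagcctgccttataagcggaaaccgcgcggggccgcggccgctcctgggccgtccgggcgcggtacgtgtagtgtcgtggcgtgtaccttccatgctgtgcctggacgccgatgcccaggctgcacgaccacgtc
Lss (chr10:76531355-76531654, plus strand): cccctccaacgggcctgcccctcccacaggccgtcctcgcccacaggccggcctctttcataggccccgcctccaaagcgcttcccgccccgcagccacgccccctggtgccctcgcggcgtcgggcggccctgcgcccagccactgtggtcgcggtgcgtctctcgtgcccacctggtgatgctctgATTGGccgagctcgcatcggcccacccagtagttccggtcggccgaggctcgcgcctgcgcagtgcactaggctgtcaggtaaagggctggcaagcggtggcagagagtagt
On either strand, the element core was found in the Hmgcs1 promoter alone, starting at base -137, and 1.24% of all 32851 promoters of the table hold it. CCAAT was found in all 6 promoters, including those of Idi1 and Cyp51, against 37.4% of all promoters, with 4 matches in Hmgcs1, 2 each in Mvd and Idi1 and 1 each in Lss, Cyp51 and Insig1. The Sp1 box GGGCGG was also in all 6, against 35.7% of all promoters, and the E-box CACGTG was in Insig1 alone, at base -101, against 7.15%. No match of one motif overlapped a match of another in these windows, a match describes the window only, and a promoter without one says nothing about the factor. Promoters of Fdft1 and Sqle are not shown.

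Of the genes of the mevalonate stretch, Hmgcs1 was lowest in WT GMP. Its levels were 2.61 and 2.81 in WT GMP, 3.38 and 3.50 in IRF8KO GMP, 3.67 and 3.71 in CDP, 3.41 and 2.98 in pre-cDC, 3.34 and 3.18 in CD8+ cDC and 3.60 and 3.76 in Neu. Both WT GMP arrays lay below every other array, and the 5 remaining groups spanned 2.98 to 3.76. In the order of the group means, CDP and Neu overlapped, as did CD8+ cDC and pre-cDC, and among neighbours only pre-cDC and WT GMP differed in the limma fit (adjusted p = 0.0151). Mvd lay at 0.03 and -0.04 in WT GMP, 0.31 and 0.22 in IRF8KO GMP, 1.61 and 1.60 in CDP, 2.43 and 2.48 in pre-cDC, 0.64 and 0.87 in CD8+ cDC and 0.88 and 1.0 in Neu. Pre-cDC stood highest and CDP next for Mvd, and no 2 groups overlapped. Neighbours in this order differed except for Neu and CD8+ cDC (adjusted p = 0.0748) and for IRF8KO and WT GMP (adjusted p = 0.0585). For Idi1 the levels were 2.18 and 2.05 in WT GMP, 1.89 and 1.80 in IRF8KO GMP, 2.77 and 2.74 in CDP, 2.18 and 2.04 in pre-cDC, 2.28 and 2.25 in CD8+ cDC and 2.27 and 2.29 in Neu. Idi1 was highest in CDP and lowest on the arrays labelled IRF8KO, with Neu, CD8+ cDC, WT GMP and pre-cDC between them. Within those 4 groups neighbours were not called different, and its group means covered the smallest range of the members, 0.91 on the log2 scale.

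Squalene synthase, at the branch to sterols, had the same leading groups as Mvd. Fdft1 lay at 0.39 and 0.50 in WT GMP, 0.30 and 0.38 in IRF8KO GMP, 0.96 and 1.07 in CDP, 1.65 and 1.77 in pre-cDC, 0.36 and 0.42 in CD8+ cDC and 0.75 and 0.85 in Neu. Pre-cDC, CDP and Neu each stood apart from the next group below. CD8+ cDC overlapped WT GMP and IRF8KO GMP, which did not overlap each other. The values are those of the brighter probe for Fdft1, since the second was not well above background on 13 of 14 arrays. Levels of Sqle were 2.75 and 2.61 in WT GMP, 2.12 and 2.09 in IRF8KO GMP, 3.28 and 3.36 in CDP, 3.08 and 2.96 in pre-cDC, 2.53 and 2.47 in CD8+ cDC and 1.83 and 1.84 in Neu. The 6 groups did not overlap for Sqle, and all neighbours differed in the limma fit, from CDP at the top to Neu at the bottom. Lss lay at 0.15 and -0.01 in WT GMP, -0.67 and -0.84 in IRF8KO GMP, -2.55 and -1.72 in CDP, -0.45 and -0.27 in pre-cDC, -0.84 and -0.58 in CD8+ cDC and -4.17 and -2.72 in Neu. Lss had the widest range of the members, 3.51 between the highest and the lowest group mean, and the lowest 2 groups were CDP and Neu. Neither Neu array was well above background for Lss, so Neu has only a bound for this gene and its 2 arrays have no order. From WT GMP to pre-cDC, CD8+ cDC and IRF8KO GMP no neighbours were called different.

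Cyp51, the first step after lanosterol, fell into a high and a low set of groups. It lay at -0.91 and -0.86 in WT GMP, -1.30 and -1.22 in IRF8KO GMP, -0.26 and -0.31 in CDP, -0.08 and -0.23 in pre-cDC, -0.27 and -0.24 in CD8+ cDC and -1.49 and -1.35 in Neu. Pre-cDC, CD8+ cDC and CDP lay between -0.31 and -0.08 and were not called different from one another. WT GMP, IRF8KO GMP and Neu lay at -0.86 and below, and CDP differed from WT GMP, its neighbour below (limma, adjusted p = 0.000117). Insig1 lay at -1.39 and -1.71 in WT GMP, -1.43 and -1.60 in IRF8KO GMP, -0.52 and -0.23 in CDP, -0.14 and -0.29 in pre-cDC, -0.93 and -0.69 in CD8+ cDC and -0.82 and -1.17 in Neu. Insig1, the regulator, was highest in pre-cDC and CDP, which overlapped, and lowest in both kinds of GMP, which overlapped as well. Over the 6 groups of the larger design, pre-cDC ranked first on this scale for 4 members (Mvd, Fdft1, Cyp51 and Insig1), CDP for 3 (Hmgcs1, Idi1 and Sqle) and WT GMP for Lss. The order of pre-cDC and CDP depended on the scale. Scaled by array medians, pre-cDC lay below CDP for Cyp51 (-0.34) and Insig1 (-0.31). Scaled by probes detected on all arrays, it lay above CDP for Sqle (0.26) and Hmgcs1 (0.06).

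**Figure D1:**
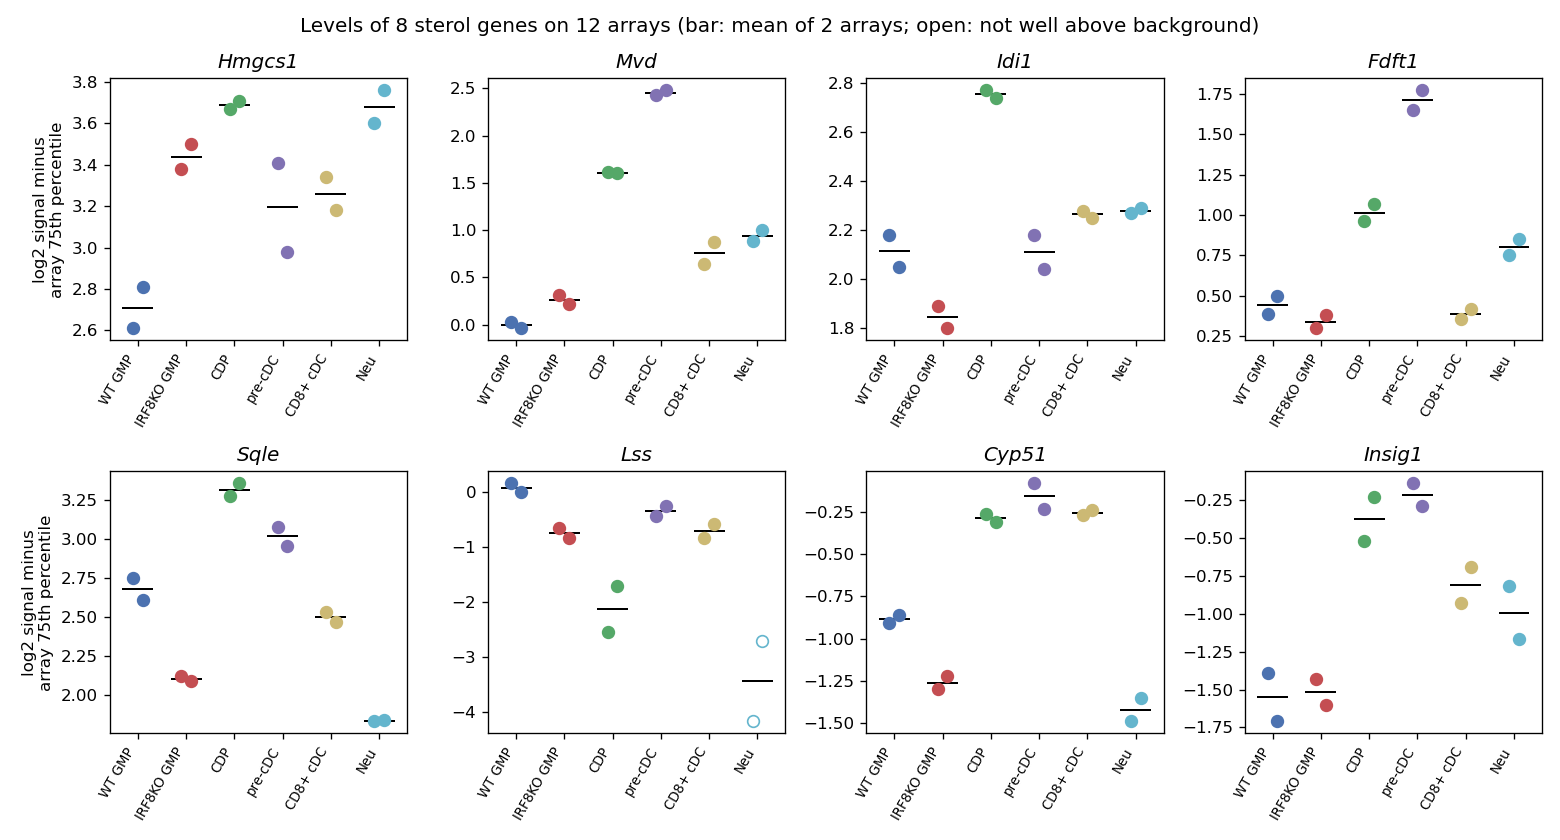
Levels of the 8 sterol synthesis genes on the 12 arrays of the larger design (y axis, log2 signal minus the array's 75th percentile; a scale of its own for each gene). Points are arrays, bars are means of 2 arrays, and open points were not well above background. Pre-cDC or CDP have the highest mean for every gene except Lss, which is highest in WT GMP and has only a bound in Neu; for Hmgcs1, CDP and Neu overlap.

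The comparison within GMP asks how progenitors labelled IRF8KO differ from wild-type ones. Hmgcs1 rose by 0.73 ± 0.15 on the log2 scale (SE, adjusted p = 0.00923), while 3 members fell: Sqle by -0.58 ± 0.07 (adjusted p = 0.000835), Cyp51 by -0.38 ± 0.07 (adjusted p = 0.00803) and Idi1 by -0.27 ± 0.07 (adjusted p = 0.0258). Hmgcs1 and the late enzymes that were called thus moved in opposite directions, and Idi1, an early enzyme, moved with the late ones. Called means an adjusted p under 0.05 in limma with Benjamini-Hochberg adjustment over all genes tested, and 25.2% of the 12156 genes tested were called (15.2% higher, 9.98% lower), against 4 of the 8 members. Mvd differed by 0.27 (adjusted p = 0.0585), Fdft1 by -0.10 (adjusted p = 0.389) and Insig1 by 0.03 (adjusted p = 0.913), the last with a sign that turned under another percentile (-0.01). Lss was lower on both arrays labelled IRF8KO (-0.67 and -0.84) than on both WT GMP arrays (0.15 and -0.01), by -0.82 ± 0.44, but was not called (adjusted p = 0.227) with the spread shared by the 12 arrays, to which the widely spaced CDP arrays (-2.55 and -1.72) and Neu arrays (-4.17 and -2.72) contribute. Fitted on the 4 arrays of the shared slide alone, Lss was called at the same difference (adjusted p = 0.00632) and so was Mvd (adjusted p = 0.0314), which gave 6 members called, 2 higher and 4 lower, where 37.3% of genes were called. The median change of the members was -0.18, and that of all genes tested was 0.04.

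Of the other pathway genes, none of the 6 remaining mevalonate and isoprenoid genes changed between the GMP groups by limma's adjusted p, and 1 was lower at an unadjusted p under 0.05. Of 10 genes that act between lanosterol and cholesterol 1 fell and 0 rose by limma's adjusted p, and 2 were lower and 1 higher at an unadjusted p under 0.05. Srebf2, which encodes SREBP-2, fell by -0.65 ± 0.12 (adjusted p = 0.00756), and Mbtps1, which encodes a protease that cuts it, rose by 0.20 ± 0.06 (adjusted p = 0.0401), out of 6 genes of SREBP processing. Among 7 genes of sterol uptake and transport 3 rose and 2 fell, among the latter Stard4, a sterol carrier, by -1.04 ± 0.11 (adjusted p = 0.000353). Median changes of these lists were 0.10 for the mevalonate and isoprenoid list, -0.03 for the late steps, 0.02 for SREBP processing and 0.19 for uptake and transport, against 0.04 over all genes tested. Of 15 cell cycle genes 8 fell, with summed levels of 534 to 555 against 583 to 607 in WT GMP, in multiples of the 75th percentile. Other cell types' markers moved as well: neutrophil markers summed to 43.4 to 46.1 against 12.3 to 12.6 (8 of 8 higher), basophil and mast cell markers to 27.5 to 28.4 against 77.6 to 81.2 (5 of 5 lower) and erythroid markers to 1.85 to 1.90 against 33.2 to 33.8 (4 of 5 lower). Monocyte and macrophage markers summed to 55.2 to 56.2 against 23.8 to 24.3 (4 of 4 tested higher), and dendritic cell markers to 23.8 to 24.4 against 8.56 to 8.57 (3 of 3 tested higher, with Xcr1 and Clec9a not above background in either group). Their part in the changes of the sterol genes was not tested.

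Single arrays and the processing decided several of these calls. Hmgcs1 was no longer called without WT GMP array 1 (0.63) or IRF8KO array 2 (0.67), Idi1 without WT GMP array 1 (-0.20), IRF8KO array 1 (-0.31) or IRF8KO array 2 (-0.22), and Cyp51 without WT GMP array 2 (-0.35) or IRF8KO array 1 (-0.34). Idi1 also lost its call with normexp (-0.18, adjusted p = 0.0971) and with no filter on dim probes (adjusted p = 0.069). Sqle kept its call without any 1 of the 4 arrays and lost it with array medians (-0.50, adjusted p = 0.0509). With array medians as the scale, Hmgcs1 was the 1 member called, and with normexp Mvd (0.31) and Lss (-0.73) were called too.

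From WT GMP to CDP, the step towards dendritic cells, 7 of the 8 members rose (Sqle not with normexp background correction) and Lss fell. Mvd rose most, by 1.61 ± 0.09 (adjusted p = 1.03e-06), followed by Insig1 at 1.18 ± 0.17 (adjusted p = 0.000349) and Hmgcs1 at 0.98 ± 0.15 (adjusted p = 0.00039). Idi1, Fdft1, Sqle and Cyp51 rose by 0.57 to 0.64 (adjusted p at most 0.000196), although Sqle showed -0.01 when the background was corrected by normexp. Lss, in contrast, fell by -2.21 ± 0.44 (adjusted p = 0.00215), from 0.15 and -0.01 to -2.55 and -1.72. The share called over all genes was 78% (51.9% higher, 26.1% lower), and the median change was 0.64 over the members and 0.31 over all genes tested. Measured from that overall median, the 7 members that rose lay between 0.26 (Fdft1) and 1.30 (Mvd) above it and Lss -2.52 from it. Scaling by probes detected on all arrays moved the overall median by -0.51, and then Hmgcs1, Mvd, Insig1 and Lss were called and the other 4 were not.

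The steps around the members rose with them in part. Of 6 other mevalonate and isoprenoid genes 5 rose, among them Fdps, farnesyl diphosphate synthase, by 1.64 ± 0.06 (adjusted p = 1.82e-07) and Pmvk, phosphomevalonate kinase, by 1.16 ± 0.05 (adjusted p = 2.3e-07), and 1 fell. Of 10 lanosterol to cholesterol genes 6 rose and 3 fell, led by Ebp, a sterol isomerase, at 2.02 ± 0.06 (adjusted p = 7.04e-08), and by Dhcr7, the last reductase of one branch, at -1.49 ± 0.08 (adjusted p = 8.61e-07). Srebf2 fell by -0.74 ± 0.12 (adjusted p = 0.000736) while Srebf1, its relative that acts mainly on fatty acid genes, rose by 0.86 ± 0.09 (adjusted p = 4.51e-05). Of 7 uptake and transport genes 2 rose and 2 fell. The list medians were 0.70 for the mevalonate and isoprenoid list, 0.64 for the late steps, 0.34 for SREBP processing and -0.12 for uptake and transport, against 0.31 over all genes tested. Cell cycle genes rose in 11 of 15 cases and fell in 4, with a summed level of 1270 to 1300 in CDP against 583 to 607, and the basophil and mast cell markers fell from 77.6 to 81.2 to between 2.30 and 2.47. Their part in the changes of the sterol genes was not tested.

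From CDP to pre-cDC the members split. Mvd rose further, by 0.85 ± 0.09 (adjusted p = 3.26e-05), as did Fdft1 by 0.69 ± 0.08 (adjusted p = 5.4e-05), and Lss rose by 1.77 ± 0.44 (adjusted p = 0.00603). Idi1 fell by -0.64 ± 0.07 (adjusted p = 4.6e-05), as did Hmgcs1 by -0.49 ± 0.15 (adjusted p = 0.0135) and Sqle by -0.29 ± 0.07 (adjusted p = 0.00429), but the sign of the last 2 depended on the scale, since Hmgcs1 lay at 0.00, 0.06 and 0.04 with quantile normalization, detected probes and the authors' deposited table and Sqle at 0.18, 0.26 and 0.22. The calls of Idi1 and Fdft1 also depended on it: Idi1 lay at -0.09 with detected probes (adjusted p = 0.251) and Fdft1 at 0.22 with array medians (adjusted p = 0.11). Cyp51 (0.13, adjusted p = 0.125) and Insig1 (0.15, adjusted p = 0.425) were not called, turned to -0.34 (adjusted p = 0.0456) and -0.31 (adjusted p = 0.195) with array medians, and were called higher with detected probes, at 0.69 (adjusted p = 6.44e-05) and 0.71 (adjusted p = 0.00549). The share called over all genes was 84.2% (23.9% higher, 60.3% lower). The median over all genes tested was itself -0.54, so distances from it are given beside the changes. Lss lay 2.32 above it, Mvd 1.40, Fdft1 1.24, Insig1 0.70, Cyp51 0.67 and Sqle 0.25. Hmgcs1 lay at 0.05 from it and Idi1 at -0.10. Whether the typical gene stayed unchanged in this step was not tested. Scaling moved that overall median from -1.01 with array medians to 0.01 with detected probes. Hmgcs1 was no longer called without CDP array 2 (-0.47) or pre-cDC array 2 (-0.28), and Cyp51 was called without pre-cDC array 2 (0.21).

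The neighbours of the members in the pathway also went both ways between CDP and pre-cDC. Acat2, which condenses acetyl units, rose by 1.07 ± 0.16 (adjusted p = 0.00033), while Fdps fell by -0.78 ± 0.06 (adjusted p = 7.28e-06), among 2 risers and 4 fallers of 6. Dhcr7 rose by 1.77 ± 0.08 (adjusted p = 3.43e-07) and Ebp fell by -1.68 ± 0.06 (adjusted p = 1.94e-07), each the opposite of its change from GMP to CDP in a comparison that shares the CDP arrays, and 2 of the 10 late genes rose and 5 fell in all. Srebf2 was the 1 of 6 SREBP processing genes to rise, by 1.23 ± 0.12 (adjusted p = 3.11e-05), and 5 fell. Of uptake and transport genes 3 rose and 2 fell, with Npc1, which exports cholesterol from lysosomes, at 1.97 ± 0.17 (adjusted p = 1.04e-05). Medians of the 4 lists came to -0.52 for the mevalonate and isoprenoid list, -0.26 for the late steps, -0.63 for SREBP processing and 0.08 for uptake and transport, against -0.54 over all genes tested. Cell cycle genes fell in 12 of 15 cases and rose in 2, and their summed level was 624 to 646 in pre-cDC. Primary granule markers summed to 146 to 147 in pre-cDC against 1330 to 1370 in CDP (3 of 4 lower and 1 higher). Neutrophil markers summed to 54.1 to 56.7 against 1.61 to 1.63 (6 of 7 tested higher and 1 lower). Their part in the changes of the sterol genes was not tested.

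Between pre-cDC and CD8+ cDC of the spleen, 4 of the 8 members were called lower: Mvd, Fdft1, Sqle and Insig1 (the last 2 not with array medians). Mvd fell by -1.70 ± 0.09 (adjusted p = 8.05e-07) and Fdft1 by -1.32 ± 0.08 (adjusted p = 1.67e-06), to 0.64 and 0.87 and to 0.36 and 0.42 on the CD8+ cDC arrays. Sqle fell by -0.52 ± 0.07 (adjusted p = 0.000221) and Insig1 by -0.59 ± 0.17 (adjusted p = 0.0145). By limma, 0 members were called higher, also 0 at an unadjusted p under 0.05, but Idi1 was called higher with quantile normalization (0.16), array medians (0.41), normexp (0.29) and in the authors' deposited table (0.18). With array medians Sqle (-0.26) and Insig1 (-0.33) lost their calls, and with normexp Lss was called lower (-0.27). Hmgcs1 (0.07, adjusted p = 0.698), Idi1 (0.16, adjusted p = 0.0696), Lss (-0.35, adjusted p = 0.502) and Cyp51 (-0.10, adjusted p = 0.23) were not called, and the signs of Hmgcs1 and Cyp51 turned under other scales (-0.01 with quantile normalization, 0.15 with array medians). Over all genes 74.7% were called (40.3% higher, 34.4% lower), and the median change was -0.43 for the members against 0.08 for all genes tested. Insig1 was no longer called without pre-cDC array 1 (-0.51) or CD8+ cDC array 1 (-0.47), Idi1 was called as higher without pre-cDC array 1 (0.22), and Hmgcs1 turned to -0.15 without pre-cDC array 2 and to -0.01 without CD8+ cDC array 1. Tissue, slide and cell stage changed together in this comparison and cannot be told apart.

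Genes that act after the members went both ways between pre-cDC and CD8+ cDC. Dhcr7 fell by -2.32 ± 0.08 (adjusted p = 8.61e-08) and Lbr, which encodes a sterol reductase that is also a nuclear lamina receptor, by -2.25 ± 0.09 (adjusted p = 1.71e-07), among 5 of 10 late genes that fell and 3 that rose. Of 6 other mevalonate and isoprenoid genes 3 fell, with Acat2 at -1.82 ± 0.16 (adjusted p = 1.77e-05) and Fdps at -1.01 ± 0.06 (adjusted p = 2.27e-06), and 3 rose, with Pmvk at 0.92 ± 0.05 (adjusted p = 7.44e-07). In SREBP processing, 5 of 6 rose, with Insig2, a relative of Insig1, at 2.05 ± 0.06 (adjusted p = 5.87e-08). Mylip, which encodes a ubiquitin ligase of sterol uptake, rose by 1.35 ± 0.06 (adjusted p = 2.47e-07), among 2 uptake and transport genes that rose and 3 that fell. As medians, the lists changed by 0.06 for the mevalonate and isoprenoid list, -0.39 for the late steps, 0.36 for SREBP processing and 0.00 for uptake and transport, against 0.08 over all genes tested. Cell cycle genes fell in 14 of 15 cases, to a summed level of 226 to 243 against 624 to 646. Erythroid markers summed to 182 to 199 in CD8+ cDC against 5.30 to 5.46, with Klf1 not above background in either group. Their part in the changes of the sterol genes was not tested.

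**Figure D2:**
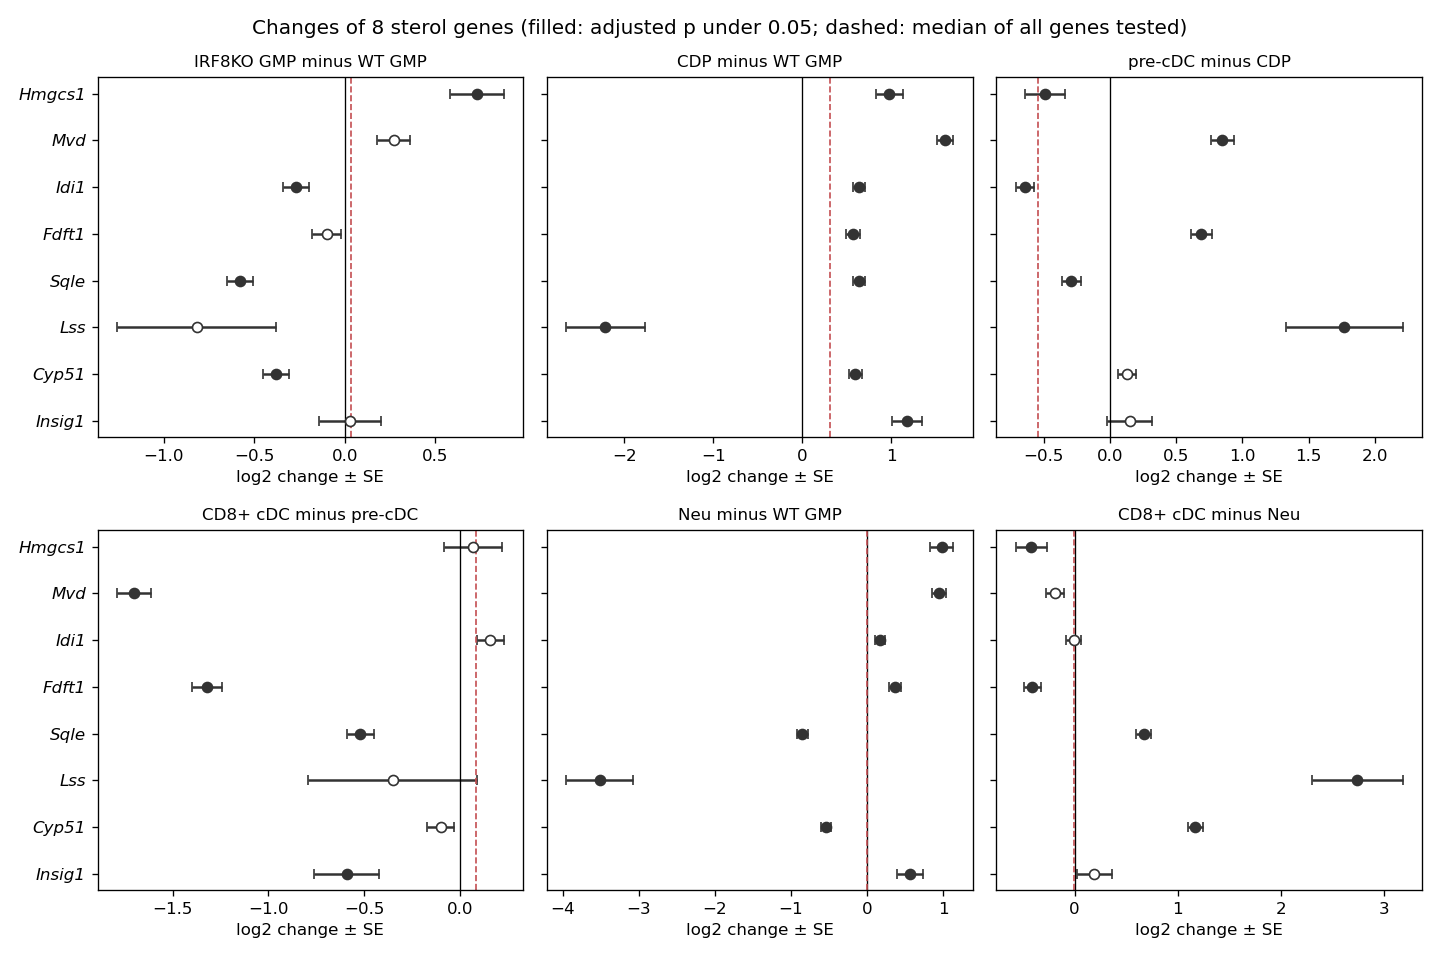
Differences between groups for the 8 sterol synthesis genes (x axis, log2 change ± SE of the limma fit on 12 arrays, with a scale of its own for each panel), filled where the adjusted p was under 0.05. Dashed lines give the median change of all genes tested, which was 0.31 from WT GMP to CDP and -0.54 from CDP to pre-cDC, and Mvd and Fdft1 lie above it in both of those steps and below it from pre-cDC to CD8+ cDC.

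Neutrophils and WT GMP differed at all 8 members. The early genes and the regulator Insig1 were higher (Idi1, Fdft1 and Insig1 not under every scale) and the late genes lower. Hmgcs1 rose by 0.98 ± 0.15 (adjusted p = 0.000264), Mvd by 0.94 ± 0.09 (adjusted p = 1.12e-05) and Insig1 by 0.56 ± 0.17 (adjusted p = 0.0147). Fdft1 rose by 0.36 ± 0.08 (adjusted p = 0.00216) and Idi1 by 0.17 ± 0.07 (adjusted p = 0.0485), both with a sign that turned under array medians (-0.12 and -0.31). With detected probes Fdft1 lay at 0.06 and was not called, and Idi1 turned to -0.13, as it did with normexp (-0.02). Insig1 was not called with quantile normalization (0.37), array medians (0.08) or detected probes (0.26). Sqle fell by -0.85 ± 0.07 (adjusted p = 5.24e-06) and Cyp51 by -0.54 ± 0.07 (adjusted p = 0.000145). Lss, not well above background in Neu, was at least 7.49-fold lower (adjusted p = 9.18e-05), a bound that sets the WT GMP mean against the higher of the dim probe's own signal and the lowest signal well above background on each Neu array. Its fitted difference of -3.51 was -2.79 without Neu array 1 and -4.24 without Neu array 2. As 92.4% of all genes tested were called (46% higher, 46.4% lower), 8 called members of 8 is close to that share, and the median was 0.26 over the members and 0.00 over all genes. Idi1 was no longer called without WT GMP array 2 (0.10), Neu array 1 (0.18) or Neu array 2 (0.15), and neither was Insig1 without WT GMP array 2 (0.40) or Neu array 1 (0.38).

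The late pathway beyond the members was also uneven in neutrophils. Dhcr7 was at least 14.4-fold lower than in WT GMP (adjusted p = 2.71e-10), while Msmo1, which acts downstream of Cyp51 on methyl sterols, rose by 3.23 ± 0.09 (adjusted p = 4.38e-09), so 5 of 10 late genes rose and 4 fell. Acat2 was at least 3.89-fold lower (adjusted p = 3.89e-06), Fdps fell by -1.27 ± 0.06 (adjusted p = 1.75e-07) and Pmvk rose by 1.10 ± 0.05 (adjusted p = 6.98e-08), among 2 other mevalonate and isoprenoid genes that rose and 4 that fell. Scap, the escort of SREBP, fell by -1.83 ± 0.08 (adjusted p = 7.29e-08), one of 3 SREBP processing genes that fell, and 2 rose. Scarb1, the HDL receptor, fell by -3.31 ± 0.06 (adjusted p = 6.26e-10), among 2 uptake and transport genes that rose and 3 that fell. The medians of these lists were -0.77 for the mevalonate and isoprenoid list, 0.29 for the late steps, -0.52 for SREBP processing and -0.32 for uptake and transport, against 0.00 over all genes tested. All 15 cell cycle genes fell, to a summed level of 28.7 to 30.2, with Aurkb and Bub1 not above background in Neu. T and NK cell markers summed to 18.6 to 19.0 in Neu against 1.49 to 1.61 in WT GMP (2 of 2 tested higher, with Ncr1 and Klrb1c not above background in either group). Of 4 B cell markers tested 3 were higher and 1 lower, and their sum was 4.63 to 4.70 against 11.2 to 11.5. Basophil and mast cell markers summed to 2.94 to 3.1 against 77.6 to 81.2 (5 of 5 lower), erythroid markers to 7.50 to 7.86 against 33.2 to 33.8 (3 of 4 tested lower and 1 higher) and primary granule markers to 24.2 to 24.5 against 1760 to 1830 (4 of 4 lower). Their part in the changes of the sterol genes was not tested.

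CD8+ cDC and Neu were on 1 slide, so their comparison stays within it. Tissue, purification and cell type differed together, however, and cannot be told apart here. Cyp51 was higher in CD8+ cDC by 1.17 ± 0.07 (adjusted p = 1.11e-06), Sqle by 0.67 ± 0.07 (adjusted p = 2.95e-05) and Lss at least 4.37-fold (adjusted p = 0.000508), while Fdft1 was lower by -0.41 ± 0.08 (adjusted p = 0.00114) and Hmgcs1 by -0.42 ± 0.15 (adjusted p = 0.0253). The call of Hmgcs1 was lost with quantile normalization (-0.15), array medians (-0.19), detected probes (-0.14), normexp (-0.14) and the authors' deposited table (-0.14), and that of Fdft1 with array medians (-0.17), detected probes (-0.13) and the mean over its probes (-0.15). With detected probes 5 members were called higher and 0 lower, the added ones being Idi1 (0.27) and Insig1 (0.47). Mvd (-0.19, adjusted p = 0.0748), Idi1 (-0.01, adjusted p = 0.879) and Insig1 (0.19, adjusted p = 0.333) were not called, and each took the other sign under at least 1 other scale or background correction (0.05, 0.22 and -0.05). Over all genes 85.8% were called (43.9% higher, 41.9% lower), and 5 members of 8 were. Fitted on the 4 arrays of that slide alone, 3 members were higher and 2 lower and 85.6% of genes were called. Hmgcs1 was no longer called without CD8+ cDC array 2 (-0.34) or Neu array 2 (-0.34), Mvd was called without CD8+ cDC array 2 (-0.30), and the fitted Lss difference was 2.01 without Neu array 1 and 3.46 without Neu array 2. With array medians 3 members were called. The median change was 0.09 over the members and 0.00 over all genes tested. Around the members, Fdps was higher in CD8+ cDC by 1.11 ± 0.06 (adjusted p = 5.22e-07) and Scap by 1.91 ± 0.08 (adjusted p = 6.85e-08), while Lbr was lower by -3.61 ± 0.09 (adjusted p = 3.27e-09) and Msmo1 by -2.73 ± 0.09 (adjusted p = 1.48e-08). In this comparison 4 of 6 other mevalonate and isoprenoid genes were higher and 1 lower, 4 of 10 late genes higher and 5 lower, 5 of 6 SREBP processing genes higher, and 3 of 7 uptake and transport genes higher and 3 lower. List medians were 0.58 for the mevalonate and isoprenoid list, -0.44 for the late steps, 0.92 for SREBP processing and 0.02 for uptake and transport, against 0.00 over all genes tested. Cell cycle genes were higher in CD8+ cDC in 14 of 15 cases. T and NK cell markers summed to 3.41 to 3.50 in CD8+ cDC against 18.6 to 19.0 in Neu (2 of 2 tested lower), and erythroid markers to 182 to 199 against 7.50 to 7.86 (2 of 3 tested higher and 1 lower). Their part in these changes was not tested.

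Levels of CD4+ cDC can be set against CD8+ cDC only on the 39429 probes that both array designs hold, scaled to the 75th percentile of those. On this scale Mvd lay at 0.70 and 0.50 in CD4+ cDC and at -0.45 and -0.23 in CD8+ cDC, and it was higher by 0.94 ± 0.09 (adjusted p = 2.05e-05). Fdft1 was higher by 0.61 ± 0.10 (adjusted p = 0.000391) and Hmgcs1 by 0.42 ± 0.14 (adjusted p = 0.0211). Sqle lay at 0.33 and 0.55 against 1.44 and 1.37 in CD8+ cDC and was lower by -0.96 ± 0.08 (adjusted p = 8.24e-06), as were Insig1 by -0.84 ± 0.17 (adjusted p = 0.00163), Idi1 by -0.41 ± 0.06 (adjusted p = 0.000394) and Cyp51 by -0.35 ± 0.10 (adjusted p = 0.0112). Lss differed by -0.26 (adjusted p = 0.592) and turned to 0.04 with array medians. Over all genes 74.9% were called (36.3% higher, 38.6% lower), and the median was -0.31 over the members and -0.02 over all genes tested. Cyp51 was no longer called with array medians (-0.06), with detected probes (-0.15), with only the arrays compared (adjusted p = 0.0774) or without CD4+ cDC array 1 (-0.20), Idi1 was not called with array medians (-0.11, adjusted p = 0.391), and neither was Hmgcs1 without CD4+ cDC array 2 (0.35) or CD8+ cDC array 2 (0.34). With both Fdft1 probes averaged, its difference was 0.09 and not called. Array design, slide, purification and cell type cannot be told apart here.

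Both cDC groups also differed in the rest of the pathway. Fdps was lower in CD4+ cDC by -1.31 ± 0.06 (adjusted p = 2.25e-07) and Pmvk by -1.10 ± 0.04 (adjusted p = 9.44e-08), with 3 of 6 other mevalonate and isoprenoid genes lower, and 4 of 10 late genes were higher and 4 lower. Insig2 was lower by -1.22 ± 0.06 (adjusted p = 3.55e-07). Npc1 was higher by 2.27 ± 0.15 (adjusted p = 1.78e-06) and Scarb1 lower by -2.0 ± 0.07 (adjusted p = 3.6e-08), among 2 uptake and transport genes that were higher and 5 that were lower. For the lists the medians were -0.46 for the mevalonate and isoprenoid list, -0.14 for the late steps, -0.31 for SREBP processing and -0.59 for uptake and transport, against -0.02 over all genes tested. Markers of several other cell types were mostly brighter in the bead-purified CD4+ cDC: 8 of 8 neutrophil markers with a median change of 2.71 and 5 of 5 erythroid markers with 1.97. Of 5 monocyte and macrophage markers tested 4 were higher and 1 lower, with a median of 2.78. Of 5 T and NK cell markers 3 were higher and 1 lower, with a median of 2.20. Their part in the differences of the sterol genes was not tested.

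**Figure D3:**
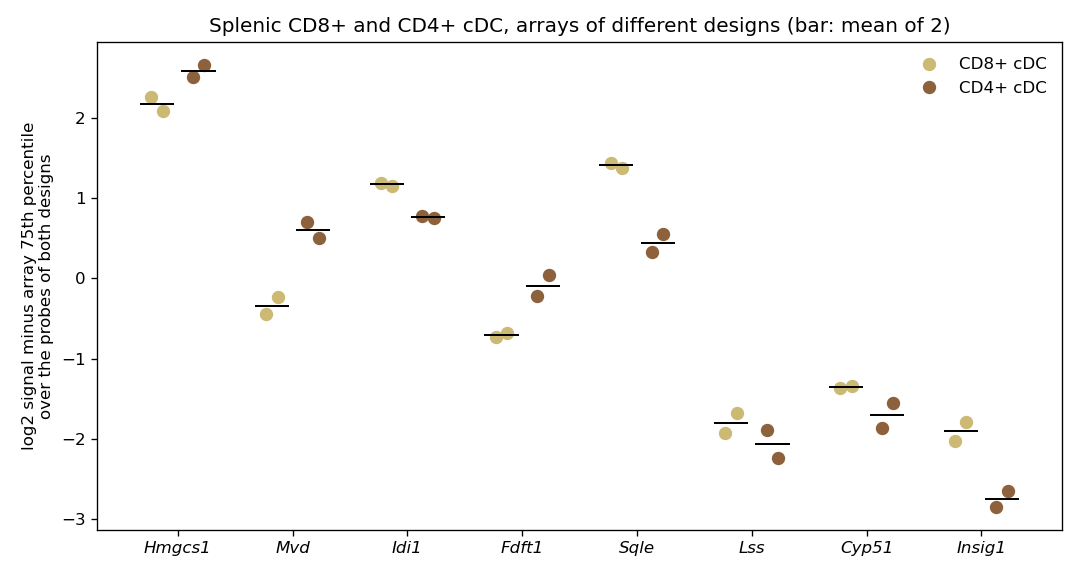
Levels of the 8 sterol synthesis genes in splenic CD8+ and CD4+ cDC (y axis, log2 signal minus the array's 75th percentile over the probes of both designs). Points are arrays and bars are means of 2 arrays; Hmgcs1, Mvd and Fdft1 stand higher and Idi1, Sqle, Cyp51 and Insig1 lower in CD4+ cDC, and the arrays of the groups overlap for Lss alone.

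Early and late steps were next set against each other within each array, which does not depend on the scale of the array. The mean level of Hmgcs1, Mvd, Idi1 and Fdft1 minus that of Sqle, Lss and Cyp51 was taken relative to the mean of WT GMP. This split was chosen after the values were seen, so it is a description without a test. The difference was 0.73 and 0.77 on the arrays labelled IRF8KO, 1.40 and 1.15 in CDP, 0.87 and 0.80 in pre-cDC, 0.49 and 0.44 in CD8+ cDC, 1.39 and 1.38 in CD4+ cDC and 2.46 and 2.03 in Neu, around -0.05 and 0.05 in WT GMP. Every group therefore lay above WT GMP, with Neu highest. Since Lss is dim in CDP and Neu, the same difference without it was 0.64 and 0.62 on the arrays labelled IRF8KO, 0.32 and 0.34 in CDP, 0.50 and 0.53 in pre-cDC, 0.11 and 0.15 in CD8+ cDC, 1.29 and 1.07 in CD4+ cDC and 1.29 and 1.32 in Neu, around -0.04 and 0.04 in WT GMP. Groups kept their side of WT GMP, CDP moved from among the higher groups to among the lower ones, and CD4+ cDC came to overlap Neu. A difference of this kind shows that early and late steps changed unequally and does not show which of them changed.

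**Figure D4:**
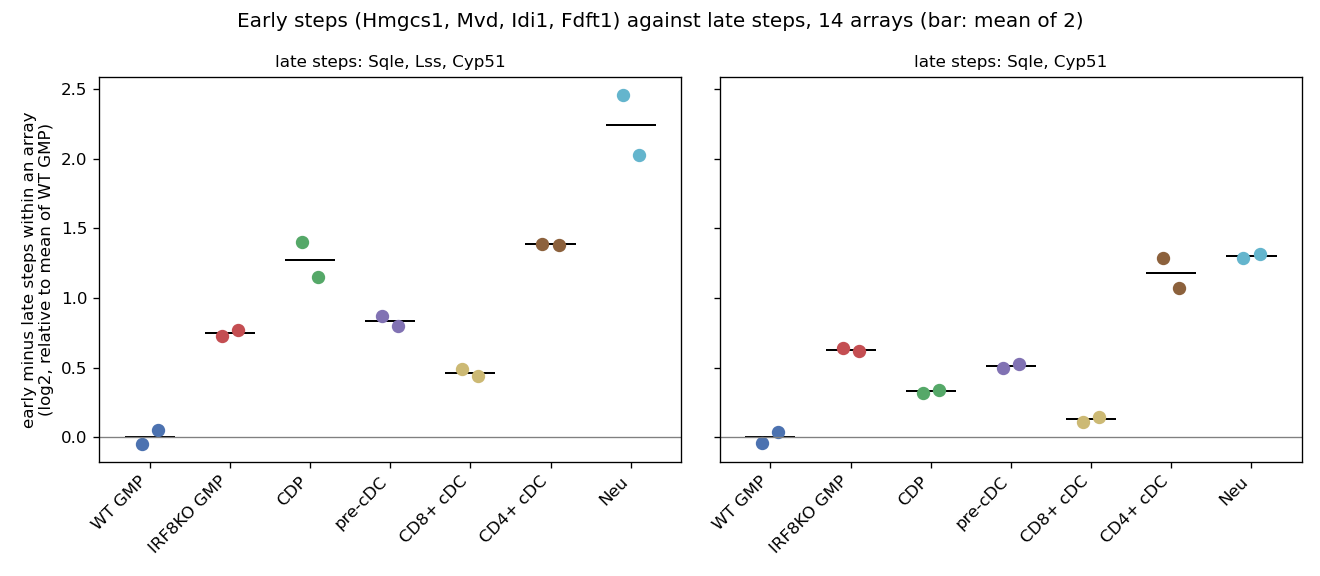
Mean level of the early steps (Hmgcs1, Mvd, Idi1 and Fdft1) minus that of the late steps on each of the 14 arrays (y axis, log2, relative to the mean of WT GMP), with Sqle, Lss and Cyp51 as late steps on the left and Sqle and Cyp51 alone on the right. Points are arrays and bars are means of 2; all groups lie above WT GMP, with Neu at 2.46 and 2.03 on the left and at 1.29 and 1.32 on the right.

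The members did not move as 1 block. Over the 12 arrays of the larger design, the 28 pairs of members had a median Pearson correlation of 0.41, and 21 were above 0, where arrays of a group are not independent points and share slide and scale. Mvd and Fdft1 followed each other most closely (0.94), then Mvd and Insig1 (0.92) and Sqle and Cyp51 (0.84). Hmgcs1 and Lss correlated at -0.75, a value that includes the Neu arrays where Lss has only a bound, and at -0.84 over the 10 arrays without Neu. With the mean of the other 7 members, the correlation was 0.86 for Cyp51, 0.80 for Sqle, 0.74 for Insig1, 0.70 for Mvd and 0.69 for Fdft1, but 0.29 for Idi1, -0.11 for Lss and -0.16 for Hmgcs1. Because that mean includes Lss, values without the Neu arrays were added after seeing the data, and they were 0.93 for Insig1, 0.92 for Mvd, 0.88 for Fdft1, 0.82 for Cyp51, 0.74 for Sqle, 0.40 for Idi1, 0.13 for Hmgcs1 and -0.48 for Lss. Hmgcs1 and Lss were lowest either way.

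The mean over the 7 members other than Lss, also added after seeing the data, was 1.79 and 1.67 in pre-cDC, 1.64 and 1.70 in CDP, 1.13 and 1.18 in CD8+ cDC, 1.0 and 1.03 in Neu, 0.81 and 0.76 in WT GMP and 0.75 and 0.74 in IRF8KO GMP. On this scale pre-cDC and CDP overlapped at the top, and Neu lay above both kinds of GMP. Both orders depended on the scale. From WT GMP to Neu, array medians shifted the median change of all genes by -0.48 and detected probes by -0.30. Each shift was larger than the gap between these 2 groups here. From CDP to pre-cDC the same scales shifted it by -0.47 and 0.55. With Lss included, at its dim values, Neu came last (0.36 and 0.56) and pre-cDC (1.51 and 1.43) stood apart from CDP (1.12 and 1.28). Among 13552 genes, those whose level over the 12 arrays was most like the mean of all 8 members were Pip4p1 (0.974), Abhd17a (0.964), Tcf19 (0.962), Tnfsf9 (0.956), Ahnak (0.955), Tmem221 and Cd209a (0.954 each), and Rtn4rl1, Mxd3 and D5Ertd579e (0.953 each). This list depends on Lss, since Tcf19 (0.968) was the 1 gene of the 10 that was also among the 10 most like the mean without it, which Upb1 (0.993) led.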

How the data were processed

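Gene expression was measured on 14 single-colour Agilent arrays, 2 for each of 7 groups, and samples were grouped by their titles. Per the file headers, the spot intensity values were made from the images by Agilent Feature Extraction 10.7.3.1, which the submitters' processing notes also name; the processed signal is background-subtracted within an array and not normalized between arrays. The authors' deposited table holds intensity values of the same arrays for 39429 probes, with the same sorted values in each column (median 46.02); its making is not described in the labels or headers, and setting it against the scanner values settled its linear scale and direction, with no centring of genes.

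Control and outlier spots were left out, spots of a probe were averaged as log2 signal, and the 75th percentile over the probes of an array was subtracted. Symbols came from RefSeq (GRCm38.p6, names only) by probe accession: 26762 probes had 1 symbol and 28919 none. The brightest probe stood for a gene. The scanner software's mark for well above background had to hold for a share of 0.5 of a probe's spots or more. The model of limma 3.58.1 (eBayes on group means, both sides tested; R 4.3.3, data.table version 1.17.8) was fitted on the 12 arrays of the larger design, and on all 14 arrays over shared probes for CD4+ cDC. Genes entered the Benjamini-Hochberg adjustment when 1 of the groups compared had both arrays well above background, and all 8 members did so in all 7 comparisons. Calls needed an adjusted p under 0.05; the scripts were tested on simulated data. At-least folds set the brighter group's mean against, per array of the dim group, the higher of the probe's own signal and the lowest signal well above background.

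Alternatives were quantile normalization, array medians, the percentile over detected probes or over spots (the last chosen after seeing the data), normexp with an offset of 50, the deposited table, no filter on dim probes, the mean over probes, only the groups compared, a replicate block, and leaving out each array; likeness without Lss or without Neu was added after seeing the data. Normexp used the median spot signal, since the mean signal is not a column of the files. The replicate numbers were checked for pairing: over 21 pairs of groups, deviations of same-numbered arrays correlated at -0.22 to 0.08, so they share only a number. Named genes are the 8 members, up to 3 called genes with the largest change per pathway list and comparison, the 10 genes most like the mean of the members, and Irf8; some list genes were left to the counts, and the values of some are not reported here. The members, lists and rules were chosen with earlier results of these data known. Promoter windows are RefSeq's. Plots were made in matplotlib 3.10.9 under Python 3.11.15. The number of arrays and the signal over background limit the precision.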

Additional observations from a re-analysis of the deposited data

How the results depend on the processing

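Scaling moved many members, since it shifted the median change of all genes by up to -0.51 from WT GMP to CDP and by -0.47 to 0.55 from CDP to pre-cDC. Other choices moved single members too. From WT GMP to Neu, Lss went from -3.51 to -2.79 or -4.24 without 1 Neu array. Between the cDC groups, averaging both probes took Fdft1 from 0.61 to 0.09. With array medians, 1 member was called between the GMP groups, 5 from WT GMP to Neu and 3 between CD8+ cDC and Neu; with the percentile over detected probes, 4 were called from WT GMP to CDP and 5 from WT GMP to Neu. Leaving out 1 array at a time left 2 to 3 members called between the GMP groups, 8 in every case from WT GMP to CDP, 5 to 6 from CDP to pre-cDC, 3 to 4 from pre-cDC to CD8+ cDC, 6 to 8 from WT GMP to Neu, 4 to 5 between CD8+ cDC and Neu and 6 to 7 between the cDC groups. Over all genes tested, 3058 calls between the GMP groups became 1485 with array medians and between 1851 and 1992 without 1 array. The share of calls that were higher, 66.5% from WT GMP to CDP, was 51.7% with quantile normalization, 40.4% with detected probes and 52.4% in the authors' deposited table. From CDP to pre-cDC it went from 28.4% to 16.5% with array medians, 51.1% with detected probes and 39.6% in the deposited table, from pre-cDC to CD8+ cDC from 53.9% to 66.8% with array medians, and between CD4+ and CD8+ cDC from 48.5% to 63.6% with array medians and 59.2% with detected probes.

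Several signs turned. Between the GMP groups Insig1 turned to -0.01 with detected probes, -0.13 without WT GMP array 2 and -0.05 without IRF8KO array 1, where it reached 0.20 without WT GMP array 1. From WT GMP to CDP Sqle turned to -0.01 with normexp. From CDP to pre-cDC Hmgcs1 turned to 0.00 with quantile normalization, 0.06 with detected probes and 0.04 in the deposited table, Sqle to 0.18, 0.26, 0.22 and, with normexp, 0.09, Cyp51 to -0.34 and Insig1 to -0.31 with array medians, and Insig1 to -0.05 with normexp. From pre-cDC to CD8+ cDC Hmgcs1 turned to -0.01 with quantile normalization, in the deposited table and without CD8+ cDC array 1, and to -0.15 without pre-cDC array 2, where it reached 0.28 without pre-cDC array 1, and Cyp51 to 0.15 with array medians. From WT GMP to Neu Idi1 turned to -0.31 with array medians, -0.13 with detected probes and -0.02 with normexp, and Fdft1 to -0.12 with array medians. Between CD8+ cDC and Neu Idi1 turned to 0.12 with quantile normalization, 0.22 with array medians, 0.27 with detected probes, 0.11 with normexp, 0.08 in the deposited table and 0.00 without CD8+ cDC array 2 or Neu array 2, Mvd to 0.05 with array medians and 0.10 with detected probes, and Insig1 to -0.05 with normexp and -0.03 in the deposited table. Between the cDC groups Lss turned to 0.04 with array medians. The cause of these turns was not tested.

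With the replicate number as a block, 4, 8, 6, 4, 8, 5 and 7 members were called in the 7 comparisons in the order of the report, the same numbers as without it, and each of the 56 changes kept its direction and its side of the threshold. The numbers do not pair the samples. Signal over background limits Lss in Neu, the second Fdft1 probe, and the dim genes given as bounds.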

Other observations

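Genes of cholesterol efflux and of fatty acid synthesis, which the liver X receptors and SREBP-1 control in many tissues, took courses of their own. Apoe, a carrier of effluxed cholesterol, fell by -5.29 ± 0.10 from WT GMP to CDP (limma, adjusted p = 9.93e-09), rose by 4.08 ± 0.10 from pre-cDC to CD8+ cDC (adjusted p = 1.95e-08) and was higher still in CD4+ cDC by 1.52 ± 0.24 on the shared probes (adjusted p = 0.000455). Nr1h3, which encodes LXR alpha, was at least 5.51-fold higher in CD8+ cDC than in pre-cDC (adjusted p = 7.89e-05) and higher again in CD4+ cDC by 2.59 ± 0.34 (adjusted p = 0.000136). Abca1, the main exporter of cholesterol, was at least 4.99-fold lower in CD8+ cDC than in pre-cDC (adjusted p = 3.24e-06) and at least 7.68-fold higher in CD4+ than in CD8+ cDC (adjusted p = 5.32e-06). Between those cDC groups 4 of 7 tested genes of the efflux and oxysterol list were higher and 2 lower, with a median of 0.57 against -0.02 over all genes tested. Array design, slide, purification and cell type cannot be told apart between them. Of 5 monocyte and macrophage markers tested, 4 were also higher in CD4+ cDC and 1 lower, with a median of 2.78. Their part in the differences of the efflux genes was not tested.

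In neutrophils the fatty acid list fell in 5 of 6 tested genes and rose in 1, with a median change from WT GMP of -3.79 against 0.00 over all genes tested. Elovl6, a fatty acid elongase, was at least 30.7-fold lower (adjusted p = 9.91e-11), Fasn, fatty acid synthase, at least 6.56-fold lower (adjusted p = 4.22e-08) and Scd2, a desaturase, fell by -5.22 ± 0.06 (adjusted p = 1.4e-10). None of these 3 was among the sterol synthesis genes, of which Hmgcs1 and Mvd rose in the same comparison.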
